A study of Drosophila melanogaster with 2 samples.

Results

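The right arm of chromosome 3 (3R) of Drosophila melanogaster carries both Hox gene complexes of the fly. An antibody against the Hox protein Deformed was set against a mock control in embryos. The regions described here are stretches of 3R that the authors' caller listed as enriched, outside those complexes and away from the centromere. They were chosen by position alone. From the larger of the 2 lists of enriched regions that the authors deposited, every 3R region with its centre above 2000000 was kept, except in the windows from 2.45 to 2.86 Mb and from 12.46 to 12.82 Mb. These windows were set for the Antennapedia and bithorax complexes as Release 5 of the genome places them. The rule gave 833 of the 922 regions on 3R and of the 3898 regions of the list. Of the 3R regions left out, 56 lay at or below 2000000, 16 in the Antennapedia window and 17 in the bithorax window.

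Chromatin immunoprecipitation followed by sequencing (ChIP-seq) pulls down the DNA that a protein occupies, and counts short sequenced tags along the genome. For the Deformed ChIP library the antibody was raised in guinea pig against Deformed, and for the control ChIP library it was guinea pig IgG, a mock. Both came from wild-type embryos of the Oregon R strain, collected for 4.5 hours and aged for 5 more at 25 °C, which gave an age of 5 to 9.5 hours and stages 9 to 12. After duplicate filtering the Deformed library held 15547495 tags and the control 12694075. Each group is 1 library, so no value below has a replicate error and no test between the libraries was possible. Intervals on tag counts and shares are 95% exact intervals. Those on tag counts cover counting error only. Those on shares treat regions as independent draws, which regions of 1 pair of libraries are not. The labels name embryos as the source and no sorting of cells, so tags from cells with and without Deformed are summed.

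Deformed is one of the Hox transcription factors, which bind DNA through a homeodomain and give body segments their identity. It acts in the mandibular and maxillary segments of the head, and its own gene lies in the Antennapedia complex. Hox proteins recognise short, AT-rich sites that are frequent in the genome, and they often bind together with the cofactors Extradenticle and Homothorax. The 3R regions outside the complexes are thus candidate loci for the protein on this arm, in an embryo in which the head segments are forming. The calls alone do not show that the protein occupies them.

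The genes at these regions are not named. No source used here gives the build of the files' coordinates, and the annotation used here is of Release 6, on which 564 of the 4226 genes of 3R start past the last deposited region of the arm, which ends at 27854849. Positions below are those of the files, counted from 1. That the members are euchromatic rests on their position, since the files hold no chromatin mark.

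The 833 regions were short and shallow. Their median length was 202 bases (quartiles 168 and 251, range 83 to 510) and their median tag count 22 (quartiles 18 and 28, range 13 to 118). The median fold enrichment was 4.35 (quartiles 3.87 and 4.87, range 2.59 to 7.0). Fold here is the authors' value for each region, the tags at its summit over the local background that their caller estimated. Control tags of single regions were not analysed here. A total of 333 regions held 20 tags or fewer and 40 held more than 40. All 833 together covered 180 kb, 0.719% of the 25.1 Mb that the rule leaves, and held 20104 tags, 0.129% of the filtered Deformed library.

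Most members scored below the cutoff of the stricter list. The authors' score is 10 times the negative log10 of a p-value, so the larger list begins at 30 and the stricter list at 40. Member scores had a median of 35.7 and a maximum of 92.59, and 380 of the 833, 45.6%, were below 35. Only 19 reached 60 and 4 reached 80. A score of at least 40 was held by 235 members, 28.2%, against 33.8% of all regions of the larger list. In the euchromatic parts of 2L, 3L and X the share was 27.4%, 28.0% and 32.0%. The authors' false discovery rate (FDR), which their caller derives from regions called with the libraries exchanged, was 100% for all 833. By that measure the members were not set apart from calls made with the libraries exchanged. Over the whole list 0.539% of regions had an FDR below 100%, which is 21 regions, and none of them is a member. In the euchromatic parts of 2L, 3L and X such regions numbered 0, 1 and 3.

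The stricter list, called from the same libraries at a cutoff of 0.0001 in place of 0.001, held 164 regions under the same rule. Of the 833 members 152 overlapped a stricter region, 18.2% (interval 15.7 to 21.0), against 26.4% of all regions of the larger list. Among these 152, 46 had the same start and end in both lists, and in the other 106 the stricter version was shorter. The summit was at the same base in 136 of them and the fold was identical in 110. Their median length was 191.5 bases in the stricter list and 227 bases in the larger. In the other direction, 12 of the 164 stricter regions overlapped no member, with scores of 40.23 to 47.94. A high score in the larger list did not assure a place in the stricter one: of the 235 members at or above 40, 110 overlapped no stricter region, and the highest of these scored 66.73. Those 125 of the 235 that did overlap were at a median fold of 4.90 and 230 bases long at the median, and the 110 that did not were at 4.22 and 272 bases. The 2 lists share their reads, so this overlap is a check of the call and not a repeat of the experiment.

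Members found in both lists were higher in fold, deeper in tags and longer than the others at the median. For the 152 the medians were a fold of 4.88, 25.5 tags and 227 bases, and the lowest fold was 3.01. For the 681 in the larger list alone they were a fold of 4.2, 21 tags and 198 bases, and the highest fold was 6.54. Of the 24 members with a fold above 6, 20 were in both lists. Of the 7 with a fold below 3, 0 were. The same reads gave these values and the call, so they describe what the cutoff kept.

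The tag count of a member followed its length, as elsewhere in the list. Spearman rho of length and tags was 0.90 in the rest of the list. It was 0.94 in the euchromatic part of 2L, 0.95 in that of 3L and 0.84 in that of X. Among the members, tags per 100 bases had a median of 10.9 with quartiles of 10.4 and 11.7. Of the 833 members 822 lay between 9 and 14. Across members, length and tags had a Pearson r of 0.88 and a Spearman rho of 0.95 (n = 833 regions, which share 1 pair of libraries). Length and fold, by contrast, had a rho of -0.21, and tags and fold a rho of -0.20. In the rest of the list these were -0.15 and -0.08. All regions passed a cutoff on a p-value that depends on tags and background, so these values are not free of that selection. The Deformed library as a whole held 13.0 tags per 100 bases of the caller's genome size of 120 Mb. This mean counts all filtered tags, and it is not the local background behind the fold. Over their full length 22 members, 2.64%, exceeded it. Among the 3065 regions of the rest of the list 592 did, 19.3%. That rest is mixed and includes regions outside the euchromatic parts of the arms. In the euchromatic parts of 2L, 3L and X the median tags per 100 bases were 10.8, 10.9 and 10.8, close to the members. The summit lay near the middle, at a median of 50.2% of the length (quartiles 38.8% and 62.4%).

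**Figure D1:**
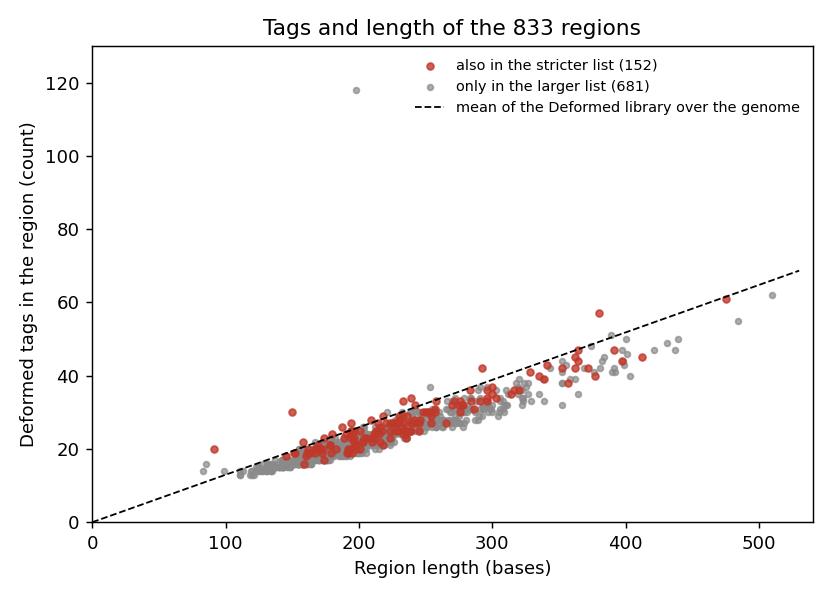
Deformed tags per region (count) against region length (bases) for the 833 members, each point 1 region, red where a stricter region overlaps it (152) and grey where none does (681). The dashed line is the library's mean of 13.0 tags per 100 bases, which is not the local background behind the fold. The points follow a narrow band below it, and the point at 118 tags and 198 bases stands far above.

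The highest-scoring member lay at 3R 9307766 to 9308240. It was 475 bases long, held 61 tags (46.7 to 78.4) and had a fold of 5.52 and a score of 92.59, which ranked 129 among the 3898 regions of the list. In the stricter list the same place was 333 bases long, with 45 tags, the same fold and a score of 79.77. Next came 3290517 to 3290808, with 42 tags (30.3 to 56.8), a fold of 4.90 and a score of 91.41, which the stricter list gave as 75.85 on 34 tags. Then came 14022283 to 14022662, where 57 tags (43.2 to 73.9) gave a score of 85.37 at a fold of 6.69. It was 1 of only 4 members at or above 80, and the only one among the 10 highest by score, the 10 highest by tags and the 10 highest by fold at once. The stricter list gave it a score of 90.15, the highest of any stricter region under the rule.

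The other 7 of the 10 highest-scoring members scored between 67.56 and 80.62, and all 10 were in the stricter list. At 27344503 to 27344864 a score of 80.62 rested on 42 tags, with a fold of 5.57. A short region of 150 bases, 18763475 to 18763624, scored 79.92 on 30 tags (20.2 to 42.8) at a fold of 6.59, with the same bounds and values in both lists. At 6847578 to 6847893 there were 36 tags at a fold of 6.07. The neighbours 13154902 to 13155242 and 13200858 to 13201192, on the far side of the bithorax window, held 43 and 40 tags at folds of 4.77 and 4.16. The member at 16577094 to 16577457 held 44 tags at 4.48. The scores carry no error, so the order of these regions among themselves is that of the list and was not tested.

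Members ranked by tags were mostly other regions than those ranked by score. The 10 with most tags held 48 to 118, and 2 of them were in the stricter list, against 10 of the 10 highest by score and 9 of the 10 highest by fold. The 3 rankings named 25 different regions, with 2 shared between score and tags, 3 between score and fold and 1 between tags and fold. After the region of 118 tags described next came the longest member, 20549719 to 20550228, of 510 bases, 62 tags (47.5 to 79.5) and a fold of 3.50. The region at 3658245 to 3658728 held 55 tags on 484 bases at 3.09. With 48 tags, 25162541 to 25162914 scored 30.06 at a fold of 2.88, close to the cutoff of the list. The many tags of these members lay on long stretches, at 11.4 to 13.1 tags per 100 bases in 8 of the 10.

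One place on the arm stood apart by tag density. The region at 3179668 to 3179865 held 118 tags (97.7 to 141) on 198 bases, 59.6 tags per 100 bases, and it was the only member with at least 100 tags. Its fold was only 2.79 and its score 38.91, and the stricter list has no region there. Less than 2 kb away, at 3177821 to 3177911, lay the member with the highest fold, 7.0, with 20 tags (12.2 to 30.9) on 91 bases, or 22.0 tags per 100 bases, and a score of 67.56 in both lists. Between them, with its centre 0.328 kb from that of the high-fold member, 3178111 to 3178277 held 22 tags, and its fold was 4.82. The member of most tags and the member of highest fold thus lay close together, at folds near the opposite ends of the range. The other members of at least 15 tags per 100 bases were 4 in number, of which the densest was the region at 18763475 with 20.

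Neighbouring members were spaced unevenly. The 830 distances between neighbouring centres had a median of 17.0 kb and a mean of 30.1 kb, with quartiles of 6.09 and 38.5 kb. Some 36.4% of them, 302, were under 10 kb, and 28 were under 1 kb. The closest pair, 16350947 to 16351216 and 16351243 to 16351399, was separated by 26 bases. At the other end 49 distances exceeded 100 kb. The longest ran 280 kb from 19923836 to 20203732, followed by 275 kb from 11769546 to 12044105 and 264 kb from 20930915 to 21194846, and none of these 3 gaps held a stricter region. Joining members less than 10 kb apart left 523 places, of which 348 were single regions, 158 held 2 to 4 members and 17 held 5 or more. The largest joined place, 22572155 to 22607608, held 9 members on 35.5 kb.

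**Figure D2:**
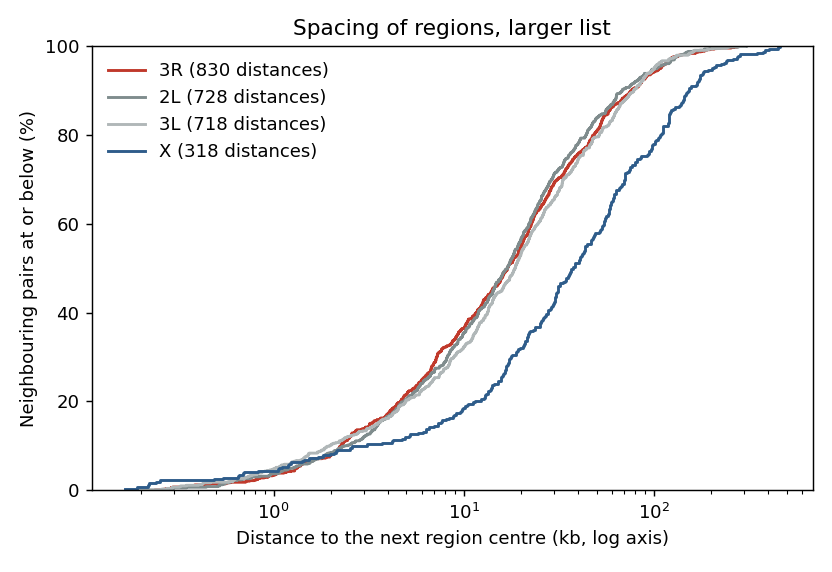
Cumulative share (%) of distances between neighbouring region centres (kb, log axis) in the larger list, for 3R outside the Hox windows and for the euchromatic parts of 2L, 3L and X, each line 1 arm. The 3R line, with a median of 17.0 kb, runs beside those of 2L and 3L, and the X line, with a median of 37.6 kb, lies to the right of them above about 3 kb.

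In windows of 50 kb the members averaged 1.65 centres. Of the 499 windows that lie wholly inside the rule, 125 were empty, 154 held 1 centre and 31 held 5 or more. The variance of the counts was 1.5 times their mean, where regions placed independently and evenly over all bases give a ratio near 1. That reference ignores unmappable sequence and neighbouring regions called from 1 signal, and no other was run. In the stricter list the ratio was 1.15, at a mean of 0.325 centres per window. The excess of the ratio over 1 depends on this mean, so the 2 lists are not compared in clustering. The 31 windows held 179 members, 21.5% of all. Median tags were 22 in those 179 members and 22 in the 654 others, and median folds were 4.33 and 4.36. In the stricter list were 19.6% of the members in the 31 windows and 17.9% of the others. The 31 windows were chosen by their number of centres. Their members had the same median tag count as the others and nearly the same median fold.

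**Figure D3:**
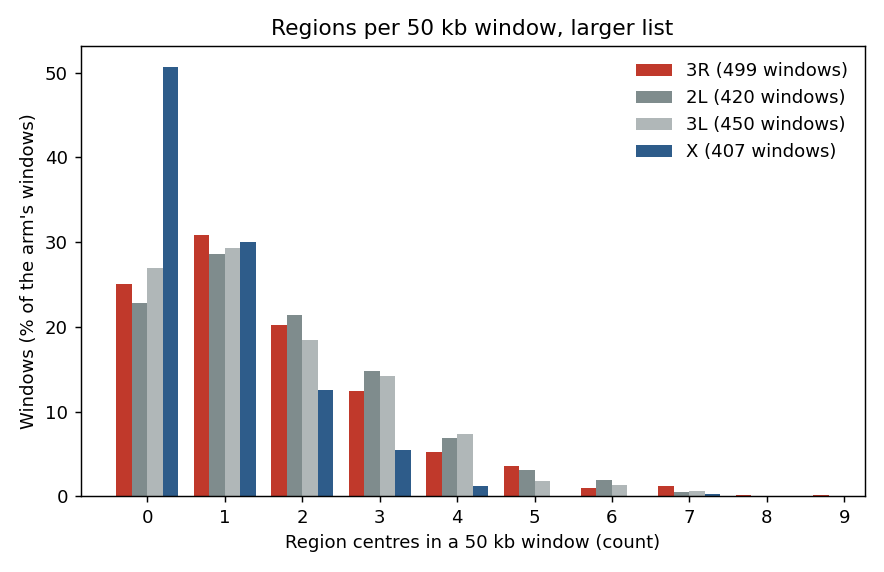
Share of 50 kb windows (%) by the number of region centres they hold, for 3R outside the Hox windows (499 windows) and the euchromatic parts of 2L, 3L and X, larger list. Windows with 8 and 9 centres occur on 3R alone among the 4 arms, 1 window each.

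The densest window, 9300001 to 9350000, held 9 members between 9305247 and 9347312, including the highest-scoring one of the arm. Their tags ranged from 15 to 61 and their folds from 3.48 to 5.52, and 3 of the 9 were in the stricter list. Besides the top region these were 9318989 to 9319218, with 28 tags and a score of 47.20, and 9328169 to 9328391, with 25 tags and a score of 50.86. The second window, 17750001 to 17800000, held 8 members of 15 to 31 tags, none in the stricter list, with scores of 34.03 to 42.39. Of these 8 members 2 scored at or above 40, against 5 of the 9 in the first window.

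A further 6 windows held 7 members each. The window 3150001 to 3200000 is that of the densely tagged pair above; it had 276 tags in all and 3 members in the stricter list. Besides the high-fold region these were 3158886 to 3159282, with 44 tags and a score of 41.02, and 3195509 to 3195734, with 27 tags and a score of 59.10. The window 17350001 to 17400000 had 2 members in the stricter list. One was 17383120 to 17383352, whose fold of 6.52 on 33 tags was among the 10 highest, and the other 17375958 to 17376177, with 27 tags and a score of 53.84. The adjoining windows 23950001 to 24000000 and 24000001 to 24050000 together form a run from 23958352 to 24029930. The 7 members of the first had scores of 31.51 to 50.30 and 2 were in the stricter list. The 7 of the second had scores of 30.62 to 48.24, 5 of them at or above 40, yet none overlapped a stricter region; the 1 stricter region centred in that window lay between members. The windows 14650001 to 14700000 and 21650001 to 21700000 each had 1 member in the stricter list, at scores of 43.47 and 54.01.

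The window 15900001 to 15950000 had only 6 members but 4 in the stricter list, the most of any window of members. They were 15903544 to 15903905 with 45 tags and a fold of 3.01, 15912217 to 15912390 with 23 tags and 5.13, 15927530 to 15927805 with 33 tags and 5.14, and 15928906 to 15929107 with 22 tags and 5.94. Their scores in the larger list were 34.54, 59.30, 64.91 and 42.87. The last of the 10 densest windows, 22550001 to 22600000, had 6 members of 19 to 42 tags and none in the stricter list. Over the 10 windows 16 of 71 members, 22.5%, were in the stricter list, against 136 of 762, 17.8%, outside them. This difference was not tested.

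**Figure D4:**
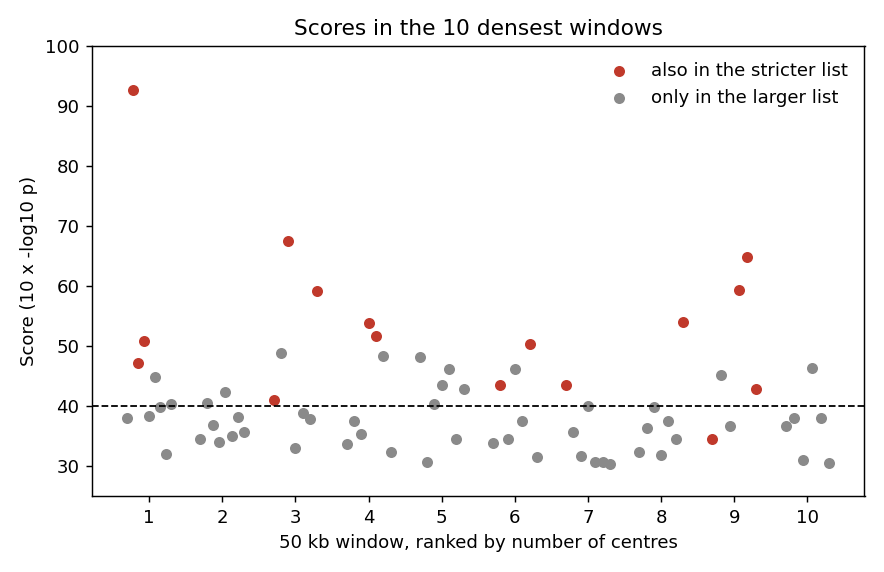
Authors' score of each of the 71 members in the 10 densest 50 kb windows, ranked from left to right by number of centres, red where a stricter region overlaps and grey where none does. The dashed line marks 40, the stricter cutoff; the first window holds the highest score of 92.59, the second has no red point and the ninth has 4.

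Along the arm the density of members differed between megabases. A count and a median of values above a cutoff vary differently, so their ranges below are not compared. In the 23 megabases that lie wholly inside the rule there were 13 to 47 members, with a median of 37. The most lay between 21 and 22 Mb (47), between 9 and 10 Mb (46) and between 14 and 15 Mb (44), and the fewest between 5 and 6 Mb (13) and between 20 and 21 Mb (18). The median tag count per megabase ranged from 17 to 26 and the median fold from 4.0 to 4.67. The stretch from 4 to 6 Mb was sparse, with 38 members, a median of 18 tags and 1 member in the stricter list, against a median of 22 tags and 151 in the stricter list among the 795 others. The share of members in the stricter list was highest between 15 and 16 Mb, at 12 of 40. Per megabase of eligible sequence there were 35.6 members below the Antennapedia window, 30.2 between the windows and 35.1 above the bithorax window, with medians of 23.5, 22 and 22 tags.

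Members next to the limits of the rule, and regions left out just beyond them, were too few for more than a description. Within 100 kb of the 2 Mb limit 6 members had a median of 23.5 tags and 6 regions left out had 27.5. At the edges of the Antennapedia window there were 7 and 3 members within 100 kb outside, against 1 and 5 regions within 100 kb inside. At those of the bithorax window there were 2 and 3 members, against 4 and 6. The members had 33.2 regions per Mb and a median fold of 4.35, the Antennapedia window 39.0 per Mb and 4.75, and the bithorax window 47.2 per Mb and 4.23. In the stricter list were 18.2% of the members, against 7 of the 16 regions of the Antennapedia window, 43.8% (interval 19.8 to 70.1), and 3 of the 17 of the bithorax window, 17.6% (3.80 to 43.4).

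Set beside the euchromatic parts of other arms, taken without the 2 Mb at their centromeric ends, the 3R members were much like those of 2L and 3L. Their density was 33.2 per Mb, against 34.7 on 2L, 31.9 on 3L and 15.6 on X. Median tags were 22 on 3R, 21 on 2L, 21 on 3L and 19 on X, and median lengths 202, 199, 195 and 175 bases in the same order. Median folds were 4.35 on 3R, 4.41 on 2L, 4.48 on 3L and 4.67 on X. In the stricter list were 18.2% of the 3R members, 20.6% of the 729 regions of 2L, 19.9% of the 719 of 3L and 22.3% of the 319 of X. Each share is a full count over 2 lists from the same reads, and the differences between arms were not tested.

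The arms differed more in their deepest regions than in their medians. The deepest member on 3R had 118 tags, against 786 on 2L, 154 on 3L and 1697 on X, and regions of at least 100 tags numbered 1 on 3R, 2 on 2L, 3 on 3L and 16 on X. The highest score was 92.59 on 3R, against 193.53 on 2L, 384.66 on 3L and 3100 on X. The variance to mean ratio of 50 kb windows was 1.5 on 3R, 1.30 on 2L, 1.37 on 3L and 1.28 on X. In the same order, 6.21%, 5.48%, 3.78% and 0.246% of their windows held 5 or more centres. Both measures depend on the mean number of centres per window, which was 1.65 on 3R and only 0.779 on X. They therefore do not rank the arms by their degree of clustering. Regions of 1 pair of libraries are not replicates, so none of these differences between arms was tested.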

How the data were processed

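Per the submitters' processing notes the aligner was Bowtie, of a version not given here, and no source used names a genome build. Regions were called with MACS 1.4.0beta, Deformed against control, per the file headers. The headers state tags of 40 bases and backgrounds over 1000 and 10000 bases. They give the caller's value d as 50 bases, which is not a measured length of the sheared DNA. The deposited tag count of a region is a whole number from the Deformed library after duplicate filtering. The deposited score, fold (a ratio) and FDR (a percent) are the values of the authors' caller, 1 per region.

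From these, members were selected by centre, and medians, distances between centres, counts in 50 kb windows counted from base 1, and overlaps of at least 1 base were computed with Python 3.11.15, numpy 2.4.6, pandas 2.3.3 and scipy 1.17.1. Windows for the variance had to lie wholly inside the rule. The functions were tested on simulated positions. Regions named are the 10 highest by score, by tags and by fold, and those of the 10 densest windows (ties by summed tags). Other places named were chosen after their values were seen. Members, limits and the 50 kb unit were chosen with earlier results of these data known. No test was run, since each group is 1 library. Alternatives were the stricter list, a score of at least 40, a 3 Mb limit, wider or no Hox windows, merging at 10 kb, other windows and 50% overlap of both lengths.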

Additional observations from a re-analysis of the deposited data

How the results depend on the processing

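Of 68 recomputed values 39 stayed within 1.5 times a count, density or ratio, or within the 95% interval of a median or share, and 29 moved. None moved with a 3 Mb limit, with Hox windows widened by 100 kb or kept, with shifted windows or with 50% overlap. The 3 Mb limit and the 2 Hox settings left 812, 818 and 866 regions against 833, so they could show little change. In the stricter list 8 of 10 values moved. With a score of at least 40, 9 of 10 did, and with merging 6 of 6. These settings keep fewer regions or places, which by itself lowers counts and densities and widens spacing. In the stricter list there were 164 regions, 6.54 per Mb, with a median length of 189 bases and a median fold of 4.99. The median tags per 100 bases were 12.4 and the median spacing was 91111.5 bases. Of neighbours 9.94% were within 10 kb. The 92.7% of stricter regions that overlapped the larger list is the reverse share, not comparable with the 18.2% of the members. With a score of at least 40 there were 235 regions, 9.37 per Mb, with medians of 28 tags, 248 bases, a fold of 4.67, 11.4 tags per 100 bases and a spacing of 53300.5 bases; 17.2% of neighbours were within 10 kb and 53.2% overlapped the stricter list. Merging at 10 kb left 523 places, 20.8 per Mb, with medians of 28 tags, a span of 252 bases and a spacing of 33908 bases, and 0% of centres within 10 kb by construction. At least 5 centres were held by 0 windows of 50 kb in the stricter list and by 2 with a score of at least 40, against 31 as reported. At least 3 centres, a lower threshold, were held by 4 in the stricter list and by 11 with a score of at least 40, against 121 in the larger list. Of these 5 alternative counts, those at 5 centres and that of 121 were chosen after seeing the data. Windows of 20 kb with at least 3 centres, where size and threshold both differ, numbered 61. The variance to mean ratio lay between 1.15 (stricter list) and 1.77 (100 kb windows), settings that also differ in their mean count per window, on which the ratio depends. Counts of about 22 tags limit every single value: such counts are known only coarsely, and no replicate exists.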
